A study of Mus musculus with 3 samples.

Results

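Sox17-GFP(+) cells obtained with Nodal were compared with undifferentiated mouse embryonic stem (ES) cells of the same reporter line, gene by gene over the whole array. The comparison used 4 of the 6 arrays of the study, 2 per group, chosen by the array names; the other 2 arrays, of cells treated with Activin A, shared the normalization, the probe filter and the fit, and are set against the Nodal arrays at the end. All cells came from a 129 strain background and carried Sox17-GFP, a reporter of the endoderm transcription factor Sox17. The Nodal cells had been kept with 5% serum and 1000 ng/ml of recombinant mouse Nodal. Their source name gives day 7 and the protocol allows 6 to 8 days, after which the GFP(+) cells were used. The undifferentiated cells had been grown on gelatin with mouse embryonic fibroblast feeders, LIF and 15% serum, with neither Nodal nor Activin. No untreated culture of the same age was measured, so effects of Nodal, time in culture, selection by GFP, serum, LIF and feeders cannot be told apart. The sample title calls the second group undifferentiated, whereas the text on the design gives it the name SOX17-GFP (+) mouse ES cells; groups here follow the titles.

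Nodal is a secreted ligand of the TGF-beta family. It binds Activin receptors together with an EGF-CFC co-receptor, and the receptors phosphorylate Smad2 and Smad3, which enter the nucleus with Smad4 and act there with partners such as Foxh1. In the gastrulating mouse embryo strong Nodal signalling in the anterior primitive streak gives rise to definitive endoderm, the germ layer of gut, liver, pancreas and lung. ES cells hold a naive pluripotent state with LIF, and leave it when they enter a germ layer.

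The 4 arrays had a median probe signal of 55.16 to 60.85 and 49.34% to 50.56% of probes detected. Their upper quartile was higher on both Nodal arrays (251.2 and 232.7) than on either undifferentiated array (202.8 and 185.0), a gap that quantile normalization removed. Detected means a detection p-value under 0.05, the share of negative control probes at least as bright. Across genes, which are not independent replicates, the 2 Nodal arrays correlated at 0.99773 and the 2 undifferentiated arrays at 0.9971, and a Nodal with an undifferentiated array at 0.84923 to 0.85167. Nothing in the labels says whether the 2 arrays of a group held separate cultures, and the descriptions give 3 replicates for Nodal and 4 for undifferentiated cells. The p-values therefore measure a spread between arrays that may be technical. Sox17 itself had log2 levels of 11.9 and 11.79 after Nodal against 6.58 and 6.45 before. Since the cells were taken by a Sox17 reporter, this difference is given as a description only. All 28 tested genes of a definitive endoderm and anterior streak list, Sox17 among them, were detected on both Nodal arrays, against 20 on each undifferentiated array. All 36 tested pluripotency genes were detected on both undifferentiated arrays, and 30 and 29 of them on the Nodal arrays. A gene had to be detected on at least 2 of the 6 arrays to be tested, so these counts are partly fixed by the filter. They describe the groups and do not test the labels.

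Most of the measured transcriptome differed between the groups. Of 17836 genes on the array, 10222 were tested and 7614 were not, because their probes were detected on fewer than 2 of the 6 arrays. By limma's moderated test, 3762 genes (36.8%) were higher in the Nodal cells and 3826 (37.4%) were lower at an adjusted p under 0.05, and 2634 did not pass. Counts for the gene lists below are to be read beside these shares. The median absolute log2 change was 0.57 with a median standard error (SE) of 0.1, and the smallest log2 change that passed was 0.2 in size, so a call alone says little about size. Changes of at least 2-fold were found for 1505 genes upwards (14.7%) and 1316 downwards (12.9%). The median log2 change over all tested genes was -0.01. Levels and changes below are on the log2 scale after background correction and quantile normalization, and a group of RNA extracts cannot tell fewer cells that express a gene from less RNA per cell.

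Genes could also cross the detection limit. A gene was counted as switched on when it rose, its probe had a detection p-value under 0.01 on both Nodal arrays, and no probe of the gene was detected on either undifferentiated array. This held for 361 genes (3.53% of those tested). The mirror rule counted 281 genes (2.75%) as lost. For such genes the fold is a lower bound, computed against the lowest level among detected probes of each array or against the gene's own level where that was higher. The bound was at least 2-fold for 262 of the switched-on and 252 of the lost genes, and at least 10-fold for 50 and 36. Its median was 2.81-fold for switched-on and 3.68-fold for lost genes. Of the 8199 genes detected on all 4 arrays 2881 rose and 3138 fell.

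**Figure D1:**
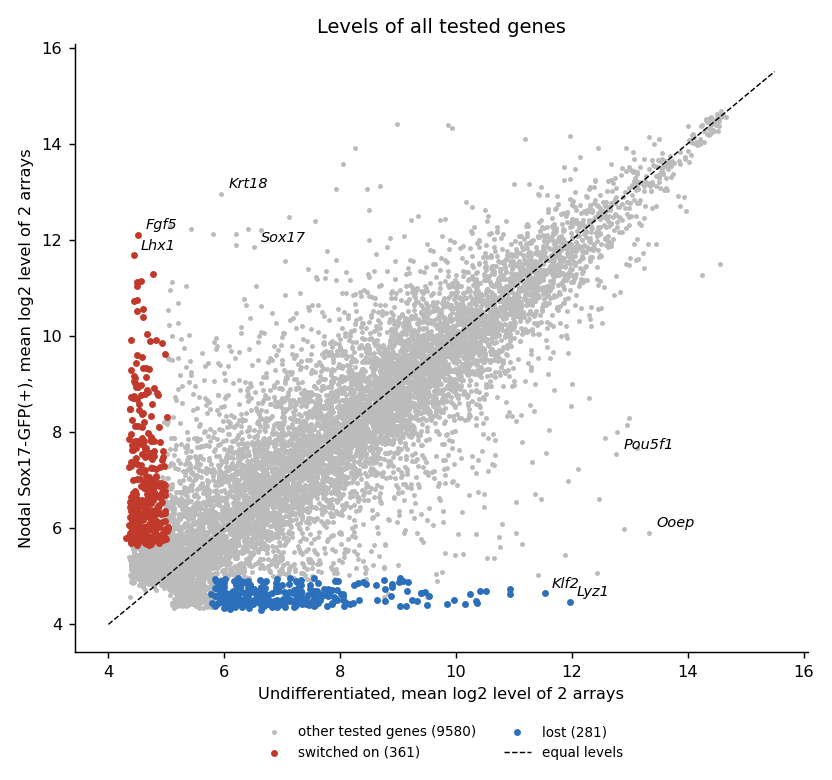
Each point is 1 of the 10222 tested genes, with its mean log2 level of 2 undifferentiated arrays on the horizontal axis and of 2 Nodal arrays on the vertical axis. Red points are the 361 switched-on genes, blue points the 281 lost genes, and the dashed line marks equal levels; points far from the line lie on both sides of it.

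The switched-on genes with the largest bounds included Fgf5, Lhx1 and Fgf8. Fgf5, a ligand typical of the epiblast after implantation, had log2 levels of 12.12 and 12.1 on the Nodal arrays and was detected on neither undifferentiated array, where its values were 4.59 and 4.45. It was at least 133-fold higher (log2 change 7.59, SE 0.09, adjusted p = 6.64e-11), the largest increase of all tested genes. Lhx1, a LIM homeobox transcription factor of the anterior streak and its mesendoderm, had 11.71 and 11.65 against values of 4.51 and 4.37, at least 99-fold. Fgf8, a ligand made in the primitive streak, had 11.02 and 11.28 and was at least 68.7-fold higher. The groups did not overlap in these genes, which the rule for switched-on genes fixes, nor in 86.7% of all tested genes (8864 of 10222).

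The promoter sequences of Fgf5 and Lhx1, the switched-on genes with the largest bounds, and of Lyz1 and Klf2, the lost genes with the largest bounds, are shown to place both classes in the genome. Each runs 5′ to 3′ from 250 bases before to 50 after the start of transcription in RefSeq, build GRCm38.p6. They lie at chr5:98253934-98254233, plus strand (Fgf5), chr11:84525485-84525784, minus strand (Lhx1), chr10:117292819-117293118, minus strand (Lyz1) and chr8:72318812-72319111, plus strand (Klf2).

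Fgf5: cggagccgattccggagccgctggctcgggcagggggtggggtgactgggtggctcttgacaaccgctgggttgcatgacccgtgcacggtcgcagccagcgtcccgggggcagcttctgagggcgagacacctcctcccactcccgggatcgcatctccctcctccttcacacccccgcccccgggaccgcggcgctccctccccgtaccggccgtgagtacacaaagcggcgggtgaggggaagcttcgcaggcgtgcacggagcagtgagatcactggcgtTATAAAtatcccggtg

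Lhx1: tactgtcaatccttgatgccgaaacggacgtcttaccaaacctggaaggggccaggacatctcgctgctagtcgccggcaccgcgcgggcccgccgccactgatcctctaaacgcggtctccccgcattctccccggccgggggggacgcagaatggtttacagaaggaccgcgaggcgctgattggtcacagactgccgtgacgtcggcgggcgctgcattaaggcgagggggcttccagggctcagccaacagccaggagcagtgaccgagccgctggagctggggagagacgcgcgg

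Lyz1: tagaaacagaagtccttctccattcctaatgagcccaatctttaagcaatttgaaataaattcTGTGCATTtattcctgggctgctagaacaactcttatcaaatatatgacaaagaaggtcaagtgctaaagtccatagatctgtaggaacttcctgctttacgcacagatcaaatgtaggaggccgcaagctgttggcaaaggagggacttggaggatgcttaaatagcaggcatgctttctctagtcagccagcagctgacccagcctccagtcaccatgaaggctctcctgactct

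Klf2: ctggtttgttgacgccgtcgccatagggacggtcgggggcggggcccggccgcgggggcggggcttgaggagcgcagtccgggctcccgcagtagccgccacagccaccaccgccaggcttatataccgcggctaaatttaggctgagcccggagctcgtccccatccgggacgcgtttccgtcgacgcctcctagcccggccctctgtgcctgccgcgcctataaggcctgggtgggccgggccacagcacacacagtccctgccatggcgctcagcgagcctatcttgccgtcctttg

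Capitals mark a match, on either strand, to any of 8 motifs. The motifs TATAAA of the TATA box and ATGCAAAT, the octamer of POU factors, are held by 13.6% and 1.74% of the 32851 promoters in the table. AATNCACA, a motif of Foxh1, is held by 3.6% and CAGACA, a motif of Smad proteins, by 21%. For the forkhead motif TGTTTAC this share is 3.65%, and for the GATA factor motif AGATAA it is 11.2%. The short Sox factor motif ATTGT occurs in 31% and the E-box CACGTG in 7.15% of promoters, and no matches overlapped in the windows shown. Fgf5 held 1 match, to the TATA box motif, at base 34 after the start. Lyz1 held 1 match, to the Foxh1 motif on the other strand from base -187, and Lhx1 and Klf2 held none. The Lyz1 window had a GC content of 44.3% and a CpG count of 0.136 of that predicted from its base composition, against 68.3% and 0.828 for Fgf5, 65.7% and 0.961 for Lhx1, and 69.3% and 0.889 for Klf2. Lyz1 thus stood apart among these 4 windows. A comparison of promoters between switched-on, lost and all tested genes was void, because only 70.4%, 66.5% and 77.1% of them had a promoter in the table.

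Among other switched-on transcription factors, Foxa1, a pioneer factor of endoderm, had 10.7 and 10.79 and was at least 51.6-fold higher, and its relative Foxa2 had 9.01 and 9.12 and was at least 16.1-fold higher. Isl1, a LIM homeobox factor of foregut and heart progenitors, was at least 45.5-fold higher. The Iroquois factors Irx5 and Irx3 were at least 28.6-fold and 27.9-fold higher, with levels of 9.84 to 9.9 on the Nodal arrays. Gata3, a factor of trophoblast and surface ectoderm among other tissues, was at least 23.4-fold higher. Mixl1 and T (Brachyury), both factors of the primitive streak, were at least 20.8-fold and 16.9-fold higher. The set thus held factors of the streak together with factors of the formed endoderm. None of these factors was detected on an undifferentiated array by any probe.

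Secreted and surface proteins were also switched on. Igfbp5, which binds insulin-like growth factors, had 11.28 and 11.29 and was at least 75.2-fold higher. Pyy, a peptide hormone of gut endocrine cells, had 10.32 and 10.75, a wider gap between the Nodal arrays than in the genes above, and was at least 44.7-fold higher. The transmembrane protease Tmprss2 was at least 29.2-fold higher and the protocadherin Pcdh7 19.2-fold. Defa31, an alpha-defensin of the kind secreted by Paneth cells, was at least 19.5-fold higher, though alpha-defensin copies are so alike that its probe may read several of them. Capn6, a calpain family member, and Myl3, a myosin light chain of muscle, were at least 64-fold and 51-fold higher. Usp18, which removes the interferon-induced modifier ISG15, was at least 23.7-fold higher, with undifferentiated values of 5.03 and 4.94 just under the limit of detection.

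**Figure D2:**
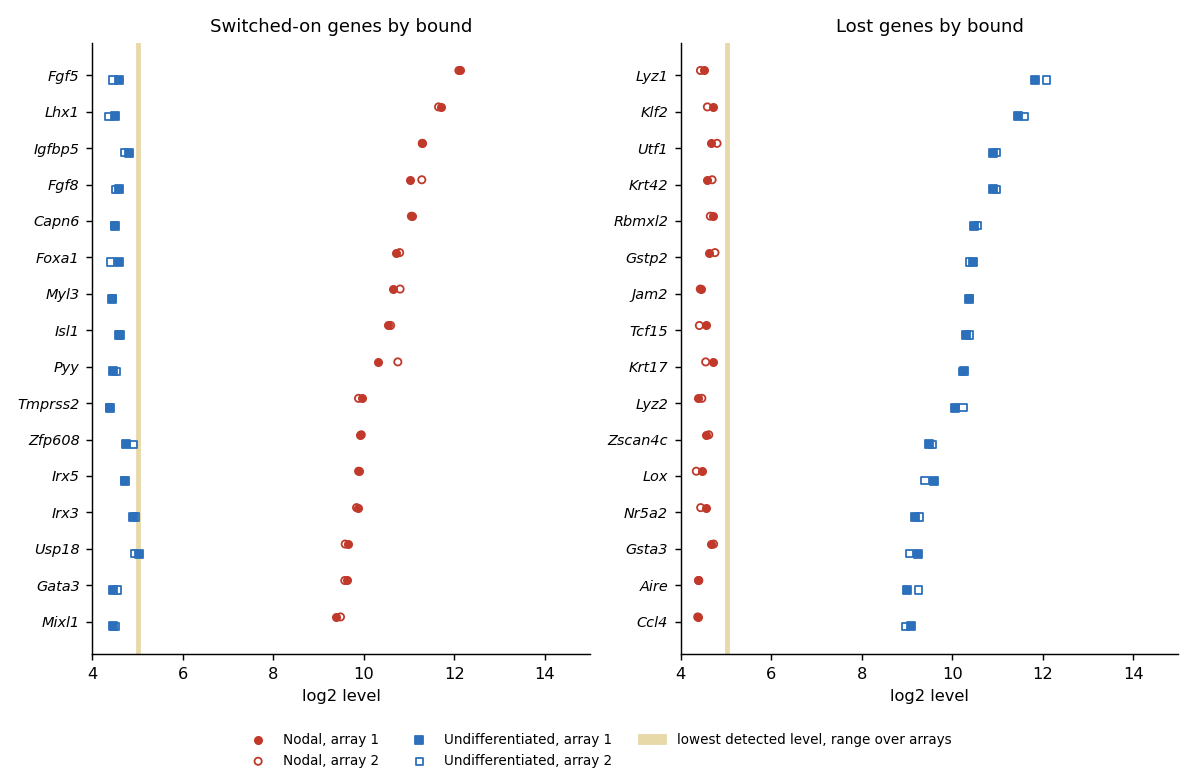
The horizontal axes give the log2 level on each of the 4 arrays for 16 switched-on genes (left) and 16 lost genes (right) described in the text, in the order of their bounds; red circles are Nodal arrays, blue squares undifferentiated arrays, filled for array 1 and open for array 2, and the shaded band is the range over the 4 arrays of the lowest level among detected probes. In each row the 2 arrays of a group lie close together and the groups lie on either side.

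The lost genes with the largest bounds included Klf2, Utf1, Jam2 and Tcf15. Klf2, a Krüppel-like factor of naive ES cells, had log2 levels of 11.46 and 11.6 on the undifferentiated arrays and was detected on neither Nodal array. It was at least 91.5-fold lower in the Nodal cells (log2 change -6.88, SE 0.1, adjusted p = 6.64e-11). Utf1, a chromatin-bound factor of ES cells, had 10.91 and 10.97 and was at least 61.1-fold lower. Nr5a2, a nuclear receptor that supports Oct4 expression, and Tcf15, a bHLH factor, were at least 18.7-fold and 40.5-fold lower, and Jam2, a junctional adhesion molecule, at least 41-fold lower. The number of lost genes fell to 18 without undifferentiated array 1 and to 28 without undifferentiated array 2, because a probe had to be detected on at least 2 arrays to be tested; with the tested probes held fixed it was 281 and 350.

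The keratin genes Krt42 and Krt17 were at least 61-fold and 37.7-fold lower, while Krt18, Krt8, Krt19 and Krt7, keratins of simple epithelia, rose by 7, 5.65, 3.76 and 3.59. Of 16 tested keratin genes 6 rose, 4 fell and 6 did not pass. The glutathione transferase genes Gstp2 and Gsta3 were at least 42.6-fold and 17.6-fold lower, with close paralogues that may share their probes. Rbmxl2, an RNA-binding protein known from testis, was at least 45.5-fold lower, and Aire, the autoimmune regulator known from thymus, at least 17.4-fold lower.

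The lost genes also included genes typical of other cells. Lyz1, a lysozyme gene, had 11.84 and 12.08 on the undifferentiated arrays and values of 4.52 and 4.44 on the Nodal arrays, at least 124-fold lower and the largest decrease of all tested genes. Its neighbour Lyz2, the lysozyme of macrophages, was at least 35.4-fold lower, and the 2 genes are near-identical enough for a shared signal. Ccl4, a chemokine, and Fcgr2b, an immunoglobulin receptor, both of myeloid cells, were at least 16.2-fold and 5.46-fold lower. Of the 24 tested genes of a macrophage list 23 fell, 12 of them to below detection, and 1, Lcp1, was at least 1.53-fold higher. Of these 24 genes 23 were detected on each undifferentiated array and 8 on each Nodal array. These detection counts are partly fixed by the filter, since only 8 members were tested when 1 undifferentiated array was left out. A further 13 members on the array were not tested. Their summed non-normalized signal, with background included, was 19963 and 19928 on the undifferentiated arrays and 3952 and 3441 on the Nodal arrays. The defining macrophage genes Adgre1, Cd14 and Mrc1, named after their values were seen, were detected on neither Nodal array.

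A fibroblast feeder list gave a smaller shift. Of 29 tested members 20 fell, 6 rose and 3 did not pass, with a median log2 change of -1.08. Lox, which cross-links collagen, and Thy1, a surface antigen of fibroblasts, were at least 22.3-fold and 14.6-fold lower, and the matrix genes Bgn and Mgp fell by 3.15 on the log2 scale and at least 5.6-fold. Feeder genes were detected in 28 and 27 cases on the undifferentiated arrays and in 19 on each Nodal array. The filter partly fixes these counts too, since 20 members were tested when 1 undifferentiated array was left out. Summed non-normalized signals, with background included, were 16201 and 14071 against 10276 and 9377. Feeders were part of the undifferentiated cultures, and the part of feeder or macrophage RNA in the lost genes was not tested.

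Genes of germ cells and of 2-cell-like ES cells also fell. Of 21 tested members 17 fell, 7 of them to below detection, 1 (Prdm1) rose and 3 did not pass. Zscan4c, a marker of the 2-cell-like state with several near-identical copies, was at least 22.9-fold lower. Ooep, a protein of the oocyte cytoplasm, had 13.27 and 13.39 on the undifferentiated arrays and 5.79 and 6.03 on the Nodal arrays, a fall of 7.42 on the log2 scale. Khdc3, its partner in oocytes, and Tex19.1 fell by 4.67 and 4.53, and Tex14 was at least 8.47-fold lower.

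Among genes detected on all 4 arrays, the keratins Krt18 and Krt8 were among those that rose most. Krt18 had 12.94 and 12.98 against 6.04 and 5.87, and Krt8 13.96 and 13.85 against 8.25 and 8.26, a 128-fold and a 50.3-fold increase. Tspan7, a tetraspanin, rose 80-fold and Efna5, a membrane-bound ephrin ligand, 51.4-fold. Car4, a membrane-bound carbonic anhydrase, and Pga5, a pepsinogen made by stomach glands, rose 47.5-fold and 46.2-fold. Pga5 had 13.61 and 13.56 against 8.02 and 8.09, so it was measured well in the undifferentiated cells too. Gpc3, a glypican, rose 34.9-fold and Pkdcc, a secreted kinase, 33.7-fold.

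Besides Ooep, the largest decreases among these genes included those of Gbx2 and Esrrb. Gbx2, a homeobox factor induced by LIF, had 12.41 and 12.45 against 5.01 and 5.13 on the Nodal arrays, a 164-fold difference, and Esrrb, an orphan nuclear receptor of naive cells, fell 122-fold. Tdh, the threonine dehydrogenase on which mouse ES cells depend, fell 86.9-fold. Pfkp, the platelet type of phosphofructokinase, fell 38.8-fold, from 10.66 on both undifferentiated arrays to 5.41 and 5.36. Chac1, which degrades glutathione, and Slc7a3, a carrier of cationic amino acids, fell 35.4-fold and 29.1-fold. Igfbp7 fell by 5.47 and L1td1, an RNA-binding protein of pluripotent cells, by 4.95.

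Genes of the Nodal pathway moved in both directions. Of 27 tested members of a Nodal and Activin list 16 rose, 6 fell and 5 did not pass, with a median log2 change of 0.68. Among the ligands, Nodal itself had 8.25 and 8.37 on the Nodal arrays against 8.58 and 8.62, a small change of -0.29 (SE 0.09, adjusted p = 0.0131). This call was lost with median scaling (-0.09, adjusted p = 0.473), without Nodal array 1 (-0.23, adjusted p = 0.103) and without undifferentiated array 2 (-0.27, adjusted p = 0.0668). Gdf3, a related ligand of ES cells, fell by 5.15, Inhbb, an Activin subunit, fell by 3.34, and the Activin subunit Inhba was at least 7.67-fold lower. None of these ligand genes rose in the cells that received Nodal protein. Furin, a protease that matures such ligands, rose by 1.96.

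The 2 EGF-CFC co-receptors moved oppositely. Cfc1 (Cryptic) had 8.97 and 9.09 on the Nodal arrays, was detected on neither undifferentiated array and was at least 15.7-fold higher. Tdgf1 (Cripto) had 10.24 on both Nodal arrays against 11.32 and 11.49, a fall of 1.17. The type II receptors Acvr2b and Acvr2a rose by 1.22 and 0.89, and Tgfbr3, the co-receptor betaglycan, rose by 3.79. The type I receptor Acvr1b was detected on too few arrays to be tested, as was the inhibitory Smad7.

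Of the intracellular mediators, Smad3 rose by 1.09 and Smad4 by 0.47, while Smad2 had a change of 0.13 (SE 0.1, adjusted p = 0.25; with median scaling 0.35, adjusted p = 0.0172). Foxh1, the forkhead partner of Smad2 and Smad3, rose by 1.5. The co-repressors Skil, Tgif1 and Tgif2 had changes of 0.19, -0.03 and -0.1 that did not pass. Among known targets, the organizer factor Gsc rose by 7.23 and was detected on 1 of the 2 undifferentiated arrays. Cer1, a secreted inhibitor of Nodal, had 9.64 and 9.46 against 5.13 and 5.28, a rise of 4.35 (SE 0.12). The file symbols Leftb and Ebaf, older names shared by the Lefty inhibitors and not members of the list for that reason, rose by 2.63 and 0.98; they were named after their values were seen.

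**Figure D3:**
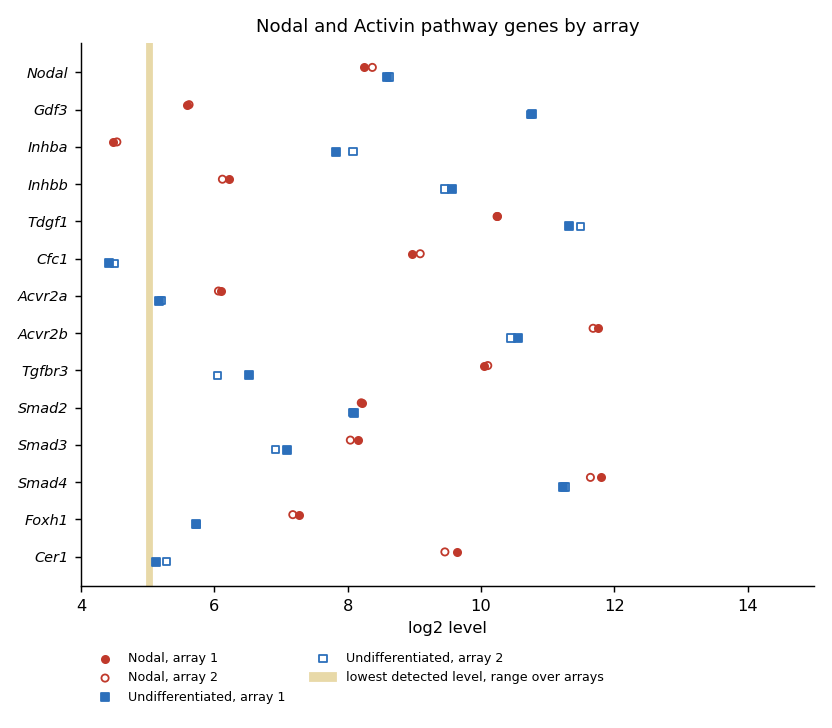
The horizontal axis gives log2 levels on each of the 4 arrays for ligands, co-receptors, receptors, Smad genes and targets of the Nodal pathway; red circles are Nodal arrays, blue squares undifferentiated arrays, filled for array 1 and open for array 2, and the shaded band is the lowest level among detected probes. Cfc1 lies below the band on the undifferentiated arrays and Inhba on the Nodal arrays.

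Wnt pathway genes mostly rose. Of 41 tested members 27 rose (65.9%, against 36.8% of all tested genes), 8 fell and 6 did not pass, 12 were switched on, and the median log2 change was 0.99. The Wnt-responsive factor Sp5 had 12.08 and 12.18 against 6.2 and 6.22, a 60.6-fold rise, and the receptor Fzd2 was at least 14.1-fold higher. The secreted inhibitor Dkk1 rose by 4.4, detected on 1 of 2 undifferentiated arrays, and Shisa2, which holds Frizzled receptors back in the cell, rose by 3.94. Not all members followed: Notum, a secreted enzyme that inactivates Wnt proteins, fell by 3.57, Porcn, which lipidates Wnt proteins, fell by 2.04, and the ligand Wnt3a was at least 3.67-fold lower. Ccnd1, cyclin D1, fell by 2.14, and Myc had a change of -0.1 that did not pass.

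BMP pathway genes rose as well, with 22 of 27 tested members higher, 4 lower and a median change of 1.42. Msx1, a homeobox target of BMP, had 10.49 and 10.58 against 5.13 and 4.93, a rise of 5.51, and the target Id3 rose by 2.61. Bmper, a secreted BMP modulator, rose by 3.24. The ligand Bmp4 fell by 1.49, from 11.03 and 10.85 to 9.4 and 9.51, and the antagonist Grem1, at least 1.46-fold lower, was detected on neither Nodal array. Target genes and this ligand thus moved in opposite directions.

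The FGF and ERK list was split, with 12 of 32 tested members higher (37.5%) and 15 lower (46.9%). Over all tested genes these shares were 36.8% and 37.4%. Its median of -0.02 turned sign with median scaling, with cyclic loess and without Nodal array 1. Without either undifferentiated array it also turned, as only 28 members were then tested. With the tested probes held fixed it stayed negative (-0.0396 and -0.0411). Ligands changed over: Fgf5 and Fgf8 were switched on and Fgf10 rose by 3.65 (11.31 and 11.14 against 7.56 and 7.59). Fgf4, the autocrine ligand of ES cells, was at least 4.71-fold lower, and Fgf17 fell by 3.25 and Fgf15 fell by 2.57, the latter detected on 1 of 2 Nodal arrays. The ERK-responsive factors Etv5 and Etv4 and the feedback inhibitor Spry4 fell by 2.88, 2.05 and 1.61, whereas the phosphatase Dusp4 rose by 2.28 and Dusp6 had a change of 0.15 that did not pass. Readouts of this pathway therefore gave no single direction.

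Of 25 tested hedgehog and Notch genes 14 rose and 7 fell, with a median of 0.57. The receptor Notch3 and the ligand Jag1 rose by 3.31 and 2.97 and the target Nrarp rose by 2.58, while Notch4 and Notch1 fell by 3.08 and 1.1. Shh, the hedgehog ligand of gut and notochord, had 7.38 and 7.4 and was at least 5.04-fold higher. Of 22 LIF and STAT3 genes 13 fell and 5 rose. Besides Gbx2, the factor Klf4 fell by 3.94, the feedback inhibitor Socs3 by 2.01, the co-activator Bcl3 by 2.14 and the small GTPase Mras by 4.77. The receptor Lifr and Stat3 themselves had changes of -0.11 and 0.05 that did not pass, so targets and receptor did not move alike, and Cish and Jak2 rose by 2.06 and 1.51.

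**Figure D4:**
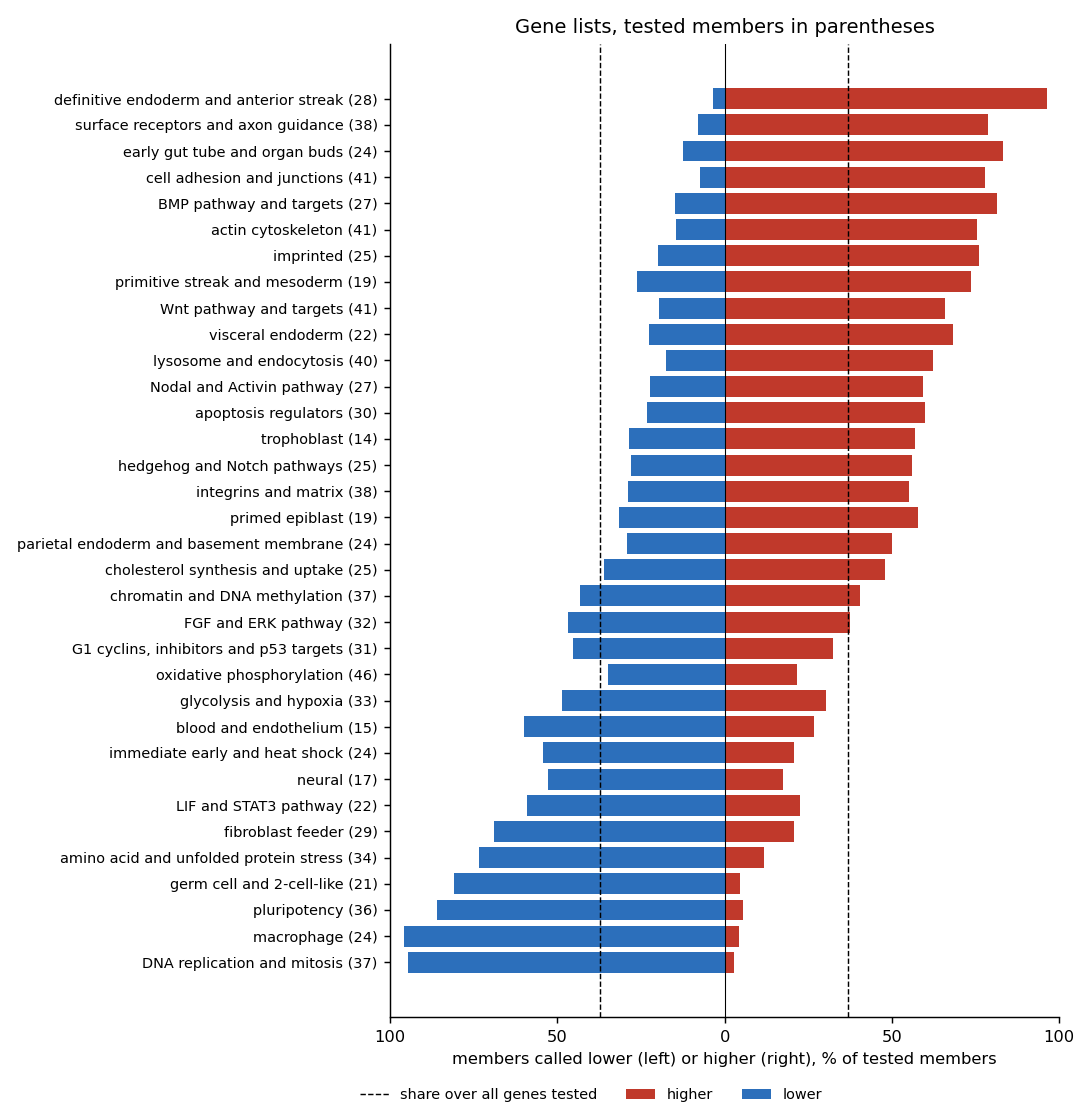
Bars give, for each of 34 gene lists, the percentage of tested members that rose (red, to the right) or fell (blue, to the left) at an adjusted p under 0.05; the number tested is in parentheses. Dashed lines mark the shares over all tested genes, 36.8% higher and 37.4% lower; DNA replication, macrophage and pluripotency lists lie at the lower end and definitive endoderm at the upper end.

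Lineage lists differed in extent and shared some members, so their counts are not independent. Otx2, Cldn6 and Krt18, for example, were counted for both definitive endoderm and primed epiblast. In the definitive endoderm list, which includes Sox17, the gene of the reporter, 27 of 28 tested members rose and Ripply3 fell, with a median of 4.14. In this list Cldn6, a tight junction claudin, rose by 4.58 and Otx2, an anterior homeobox factor, by 4.43, from 8.82 and 8.57 to 13.15 and 13.11. Gata6 rose by 3.05, and Gata4 was switched on with a bound of at least 1.92-fold, with Nodal levels of 5.99 on both arrays. In the early gut list 20 of 24 rose, 11 of them switched on. Besides Pyy, Isl1 and Irx3, the trypsin inhibitor Spink1 rose by 4.51 to levels of 14.43 and 14.34, and Cdx2 was at least 2.22-fold higher, while Cdx1 fell by 0.74 and Sox2 by 3.15.

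Visceral endoderm genes mostly rose, with exceptions. Of 22 tested members 15 rose (68.2%), 5 fell (22.7%) and 2 did not pass, with a median of 0.96. Over all tested genes these shares were 36.8% and 37.4%. Ttr, the thyroid hormone carrier, had 11.18 and 11.08 and rose by 6.03, and was detected on 1 of 2 undifferentiated arrays. Slc39a8, a metal carrier, and Apoa1, an apolipoprotein, were at least 9.19-fold and 8.33-fold higher, while Amn, a protein of the endocytic apparatus of visceral endoderm, fell by 2.14 and Apoc1 fell by 2.11. Afp, a classical marker of visceral endoderm, was detected on too few arrays to be tested. Hnf4a, a liver and visceral endoderm factor, rose by 1.2. In the primitive streak and mesoderm list 14 of 19 rose and 5 fell, and 11 further members on the array were not tested.

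Markers of other lineages moved in both directions. Of 17 tested neural genes 9 fell, 3 rose and 5 did not pass, and Nes, an intermediate filament of progenitors, rose by 1.58. Of 15 blood and endothelial genes 9 fell and 4 rose. Flt1, a VEGF receptor, stood out with 12.18 and 12.27 against 5.82 and 5.03, a rise of 6.8, with an SE of 0.21 and 1 of 2 undifferentiated arrays above detection. Runx1, a blood and epithelial factor, was at least 5.67-fold higher, while the endothelial genes Esam, Eng and Plvap fell by 2.71, by 2.1 and at least 3.26-fold. Of 14 trophoblast genes 8 rose and 4 fell, and Phlda2, an imprinted growth restrictor, fell by 3.35.

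The pluripotency network did not fall evenly. Of 36 tested members 31 fell, 2 rose and 3 did not pass, with a median of -3.76, and 6 were lost. Pou5f1 (Oct4) had 7.6 and 7.49 against 12.85 and 12.69 and Nanog 7.8 and 7.95 against 12.55 and 12.6, so both were still detected in the Nodal cells. Tcl1, a co-activator of Akt, fell by 6.4 and was detected on 1 of 2 Nodal arrays. Sall4 and Lin28a, also expressed in early germ layers, rose by 0.7 and 0.63. Klf2, Esrrb and Gbx2, among the members that fell most, had changes of -6.88 to -7.36, with Klf2 undetected on the Nodal arrays. Sox2 and Tdgf1 had changes of -3.15 and -1.17, and Klf4, Pou5f1 and Nanog lay between Klf2 and Sox2. A division into naive and other factors was not tested.

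Genes of the primed epiblast were divided. Of 19 tested members 11 rose and 6 fell, with a median of 0.99. Next to Fgf5 and Otx2, the carbonic anhydrase Car14 rose by 3.88, the de novo methyltransferase Dnmt3b by 1.59, and Cdh2 (N-cadherin) was at least 8.42-fold higher. Pou3f1, a POU factor of the epiblast, fell by 2.01. Dnmt3l, the cofactor of the de novo methyltransferases, fell by 5.44 while Dnmt3b rose.

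Most epithelial and surface genes rose. Of 41 tested adhesion and junction genes 32 rose, 3 fell and 8 were switched on, with a median of 1.2. Esrp1, a splicing regulator of epithelia, rose by 4.5 and Dsp, desmoplakin, by 4.04, and Zeb1, a repressor of epithelial genes, fell by 2.53. Of 38 tested surface receptor and axon guidance genes 30 rose and 3 fell, with a median of 1.36. Cxcr4, the chemokine receptor used to isolate endoderm, had 10.81 and 10.58 against 5.23 and 5.16. Sema6d and Cd24a were at least 12.5-fold and 10-fold higher, and Sema4a, another semaphorin, fell by 4.65. Of 41 tested actin cytoskeleton genes, a list that also holds the keratins, 31 rose and 6 fell; Pls3, an actin bundler, rose by 3.23 and Actg2, a smooth muscle actin, was at least 8.93-fold lower. Among 38 integrin and matrix genes 21 rose and 11 fell, with Itgb7, a leukocyte integrin, at least 8.04-fold lower.

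Most histone genes fell. Of 50 tested histone genes 33 fell, 6 rose and 11 did not pass, with a median log2 change of -1.76. When the genes were divided by core histone, a division made after their values were seen, 26 of 30 genes of the H2B, H3 and H4 clusters fell by at least 2-fold. H3c1 had 7.56 and 7.45 against 10.26 and 10.31, H2bc12 had 7.5 and 7.44 against 10.05 and 10.11, and H3c10 was at least 7.47-fold lower. All 11 H4 genes fell, with changes of -2.42 to -1.29, and 3 of the 9 H3 cluster genes rose. Of 12 tested H2A cluster genes 4 fell and 8 did not pass, with changes of -2.26 to 0.154. The 7 of them with a mean undifferentiated level over 13 had changes of -0.217 to -0.105 and none passed limma's test, with 1 of the 7 at an unadjusted p under 0.05. H2ac23 among them had 14.55 and 14.56 against 14.64 and 14.68. Whether changes are compressed at levels this high was not tested. The copies of a core histone are near-identical, so their probes may read one another's RNA. H1f0, the linker histone of cells that divide little, rose by 1.39.

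Genes of DNA replication and mitosis also fell. Of 37 tested members 35 fell, 1 (Ccne2) rose and 1 (Rrm1) did not pass, with a median of -0.86. Ccne2 no longer passed without Nodal array 1 (0.3, adjusted p = 0.0866) or without undifferentiated array 2 (0.33, adjusted p = 0.0699). Ccne1, cyclin E1, fell by 2.69, the spindle checkpoint kinase Bub1b fell by 1.93, the replication factor Rpa2 fell by 1.91 and the helicase subunit Mcm7 fell by 1.73. Of 31 genes of G1 control and p53 response 10 rose (32.3%), 14 fell (45.2%) and 7 did not pass. Over all tested genes these shares were 36.8% and 37.4%. The inhibitors Cdkn2a and Cdkn1a rose by 2.79 and 1.65, cyclin D2 (Ccnd2) rose by 1.61, and cyclin D3 (Ccnd3) and E2f2 fell by 1.91 and 1.85. Mycl, a Myc family member, rose by 3.01.

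Chromatin regulators showed no common direction, with 15 of 37 tested members higher (40.5%) and 16 lower (43.2%). Those shares were close to the 36.8% and 37.4% of all tested genes. Subunits of the same complex family differed: the Polycomb genes Cbx7 and Phc1 fell by 2.35 and 1.95, and of the BAF subunits Smarcd3 fell by 2.35 while Smarcc2 rose by 1.47. Tet2, which oxidizes methylcytosine, fell by 2.25 and was detected on 1 of 2 Nodal arrays.

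**Figure D5:**
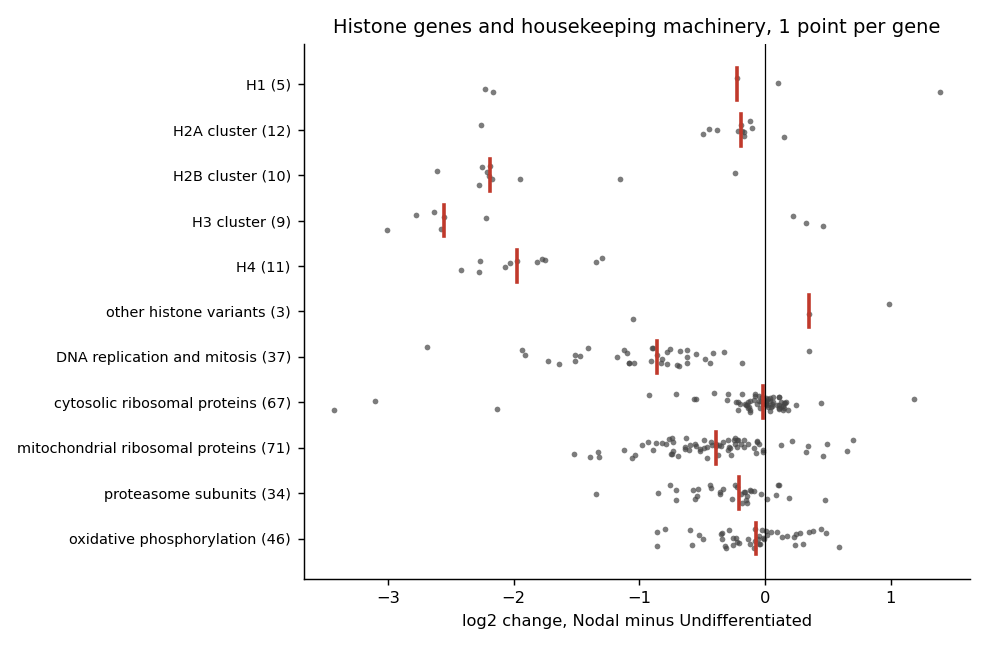
Each point is the log2 change (Nodal minus undifferentiated) of 1 tested gene, and red bars are medians; the number of genes is in parentheses. H2B, H3 and H4 genes lie mostly near -2, most H2A genes near 0, and the median of cytosolic ribosomal proteins lies at -0.01.

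Genes of the 2 ribosomes of the cell differed in their counts and also in brightness. Of 67 tested cytosolic ribosomal protein genes 2 rose, 12 fell and 53 did not pass, with a median of -0.01. The exceptions in size were paralogues of restricted expression: Rpl39l and Rpl3l were at least 7.17-fold and 5.79-fold lower and Rps4l fell by 2.13. Of 71 mitochondrial ribosomal protein genes 46 fell, 5 rose and 20 did not pass, with a median of -0.39. Mrps5 fell by 1.52, from 10.55 and 10.47 to 9.07 and 8.92, and Mrpl15 by 1.39. Of 34 proteasome subunits 16 fell, 1 rose and 17 did not pass, and of 46 oxidative phosphorylation genes 10 rose, 16 fell and 20 did not pass, with none changed 2-fold. These are small shifts, in part close to the smallest change that could pass.

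Of 33 tested glycolysis and hypoxia genes 10 rose (30.3%), 16 fell (48.5%) and 7 did not pass, beside 36.8% and 37.4% of all tested genes. Besides Pfkp, the kinase Pdk1, which restrains pyruvate dehydrogenase, fell by 2.68 and hexokinase 2 (Hk2) by 1.39, whereas Gapdh had a change of -0.17 that did not pass. Vegfa, a hypoxia target and ligand of Flt1, rose by 1.88. Of 34 genes of amino acid and unfolded protein stress 25 fell and 4 rose. The mitochondrial folate enzyme Mthfd2 fell by 3.54, Cth, which makes cysteine, by 3.2 and the stress-induced pseudokinase Trib3 by 2.97, while Vldlr, a lipoprotein receptor, rose by 2.07. Of 25 cholesterol genes 12 rose (48%) and 9 fell (36%), beside 36.8% and 37.4% of all tested genes, with a median of 0.14. This direction depended on the choice of probe. Averaging the probes of each gene gave 11 higher and 12 lower, and a median of -0.16. Soat1 and Npc2, of cholesterol storage and transport, rose by 1.72 and 1.66, and Pmvk of the mevalonate pathway fell by 1.41.

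Lysosome and endocytosis genes rose in 25 of 40 tested cases and fell in 7, with a median of 0.53. The proteases Ctsh and Ctsc rose by 3.2 and 2.62 and the membrane protein Cd63 by 2.13, while the mannosidase Manba fell by 4. Of 30 apoptosis regulators 18 rose and 7 fell; the death receptor Fas rose by 2.03, detected on 1 of 2 undifferentiated arrays, and Casp8 by 1.95, and the survival protein Mcl1 fell by 1.05. Of 25 imprinted genes 19 rose and 5 fell. Igf2 had 14.39 and 14.42 against 8.98 and 8.99, H19 rose by 5.36, Peg3 by 4.52, and Nnat and Asb4 were at least 13.4-fold and 7.49-fold higher. Of 24 immediate early and heat shock genes 5 rose (20.8%), 13 fell (54.2%) and 6 did not pass, beside 36.8% and 37.4% of all tested genes. Fos fell by 2.36 and Jun rose by 1.96, so these partners moved oppositely.

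Large gene families were counted as well. Of 199 tested solute carriers 83 rose, 72 fell and 44 did not pass, near the 36.8% and 37.4% of all genes. Slc40a1, the iron exporter ferroportin, rose by 4.43, and Slc22a23 was at least 13.2-fold higher. Of 188 tested Zfp genes 76 rose (40.4%), 50 fell (26.6%) and 62 did not pass. Zfp608 was at least 29.2-fold higher, Zfp42 (Rex1), a marker of naive ES cells, fell by 5.85, and Zfp296, a further ES cell factor, fell by 3.41. Among 45 Rab GTPases 24 rose and 11 fell, led by Rab38 and Rab15, which rose by 4.44 and 4.13. Of 12 tested Hox genes 1 rose and 5 fell, and 27 were not tested. Of 1211 olfactory and vomeronasal receptor genes 1170 were not tested, and of the 41 tested 35 did not pass. Olfr985 alone of these 41 fell by at least 2-fold, with a bound of at least 6.23-fold.

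Compared directly with the Activin arrays, the 2 endoderm cultures differed little: 288 of 10222 genes (2.82%) differed between Nodal and Activin, 151 higher and 137 lower after Nodal. Of the 361 switched-on genes 359 were detected by some probe on both Activin arrays. Between the treatments 57 of them differed (15.8%, against 2.82% of all tested genes), 32 higher and 25 lower after Nodal. Ttr was 3.08 log2 units higher after Nodal than after Activin (adjusted p = 0.000236), and Hnf4a 1.16 higher, while Defa31, T and Mixl1 were 1.2, 1.12 and 0.78 lower. Of the 281 lost genes 262 were detected on neither Activin array. Dose and ligand differ together between these cultures, since recombinant human Activin A was used at 50 ng/ml.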

How the data were processed

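Levels were measured on Illumina bead arrays in 3 kinds of mouse cell samples, 2 arrays each, from biotinylated cRNA of total RNA. The values were, per the file headers, the non-normalized signal intensity of each probe and a detection p-value, both deposited by the authors; no build or annotation is named in the sources used here. From the deposited intensity, log2 levels were computed by background correction with the detection p-values, an offset of 16 and quantile normalization (neqc, limma 3.58.1, R 4.3.3; Python 3.11.15 for the rest). Probes with a detection p-value under 0.05 on at least 2 of 6 arrays were kept, and the brightest kept probe stood for its gene. A model with 3 groups was fitted to all 6 arrays with lmFit and eBayes, and p-values were adjusted by Benjamini-Hochberg over 10222 genes. A bound takes, per array, the lowest detected level or the gene's own level if higher.

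The same fit was tested on simulated data, with 50 of 10222 genes changed at each size and independent normal noise. At log2 changes of 0.5, 1, 2 and 4, 44%, 84%, 100% and 100% were recovered, and 7 of 171 calls were false. In the data 74.2% of tested genes were called, far more than were changed in the simulation. The simulated rates therefore do not carry over to the real comparison.

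Arrays were assigned by their names. Genes were named by a rule: the 25 switched-on and 25 lost genes with the largest bounds, the 15 largest changes each way among genes detected on all 4 arrays, up to 5 each way and uncalled members per list, and genes with a role in the Nodal pathway or endoderm. Genes without a single current symbol were not named, with the exception given, and a few genes that the rule names are not reported here. The comparison, the 34 lists and the 15 families were chosen with earlier results of these data known. The name patterns of 2 families were corrected and 1 further family dropped after values were seen. Alternatives covered background correction, offset, scaling, filter, choice of probe, arrays in the fit, the replicate number and each array left out.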

Additional observations from a re-analysis of the deposited data

How the results depend on the processing

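The counts of higher and lower genes, of changes of at least 2-fold, and of switched-on and lost genes stayed within 1.5 times of the reported ones under every alternative tried, with the exceptions given here. With a detection p-value under 0.05 in place of 0.01 in the higher group, 655 genes were switched on and 566 lost. Leaving out 1 array gave 378 to 434 switched-on genes and 18 to 319 lost genes; the 18 and 28 came from leaving out an undifferentiated array, where a probe detected only in that group could no longer be detected on 2 arrays. With the tested probes held fixed, an alternative chosen after seeing the data, the lost genes numbered 281 to 350. A lone array was then assumed to vary like the other groups. Median scaling shifted the median change of all genes from -0.01 to 0.08 and gave 4161 higher and 3192 lower genes, and cyclic loess 3918 and 3621.

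With the replicate number as a block, 3794 genes were higher and 3856 lower, with 361 switched on and 281 lost. Across genes, deviations of same-numbered arrays correlated at 0.0252 between Nodal and undifferentiated cells and 0.101 between Nodal and Activin. Between Activin and undifferentiated cells the value was 0.00402. These values cannot show whether same-numbered arrays share a culture or a batch, which the labels do not state.

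Arrays limit precision through their number, 2 per group, and dim probes near background have compressed changes. Called genes with another tested probe numbered 2103, and in 544 of them another probe was not called in the same direction, in 88 of them oppositely.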
